A study of Homo sapiens with 6 samples.

Results

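Ribosome biogenesis factors and the transcription factor MYC were followed in FaDu cells depleted of NSUN2 and in libraries titled FaDu alone. The group was fixed by name as 42 genes, namely MYC and 41 factors of the nucleolus, the RNA polymerase I machinery and the particles that process and assemble ribosomal RNA, out of 58825 gene rows in the deposited table. It was chosen with earlier results of these data known. All 42 were found and all passed the filter on low counts. Their lowest mean over the 6 libraries was 22.2 CPM (counts scaled to a common library size), that of GAR1, so none of them passed that filter only because it was high in 1 group.

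FaDu is an established human line derived from a hypopharyngeal squamous cell carcinoma. The shNSUN2 group holds 3 libraries of FaDu cells that carry a hairpin against NSUN2, a methyltransferase that places 5-methylcytosine on tRNAs and some mRNAs. The FaDu group holds 3 libraries titled with the name of the line alone, and their titles name no hairpin. No library is titled as carrying a non-targeting hairpin, so loss of NSUN2 and the hairpin with its delivery cannot be told apart. The design text calls the repeats pairs, but it does not define a pair. Whether replicates came from separate cultures or clones is not stated, so p-values measure the variation among these libraries and no more, and it may be technical.

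Ribosomes are built in the nucleolus. RNA polymerase I transcribes the ribosomal RNA precursor, box C/D and H/ACA small nucleolar ribonucleoproteins (snoRNPs) modify it, and a long series of factors folds, cuts and exports the small and large subunits. MYC is known to drive genes of all these steps by binding E-box sequences near their start sites, and the nucleolus is enlarged in many carcinomas.

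Library totals were 58577723 to 72788971 estimated counts in shNSUN2 and 53612358 to 72043755 in FaDu. NSUN2 was at 50.4, 34.6 and 39.6 CPM in the shNSUN2 libraries, against 169, 173 and 156 CPM in the FaDu libraries, and its shNSUN2 mean was 25.1% of the FaDu level (edgeR adjusted p = 0.000526). All 14 markers of a squamous epithelial line passed the filter on low counts, and 4 rose and 7 fell, with the keratin genes KRT8 and KRT18 higher and KRT14 lower. In each fit that leaves out a FaDu library 2 or 3 rose and 5 fell. Some transcripts used as markers of other tissues differed between the groups. Of 10 prostate epithelium markers 5 rose and 1 fell, and their summed level was 55.1 to 71.4 CPM in shNSUN2 and 32.3 to 34.8 CPM in FaDu, where 2 of them were listed at 0 in every library. Single genes of that list differed far more than the sum. KLK2 had 11.3, 10.4 and 8.02 CPM in the shNSUN2 libraries, against 0.0654, 0.0733 and 0.0534 CPM in the FaDu libraries. KLK3 had 14.0, 16.8 and 10.2 CPM in the shNSUN2 libraries, against 0, 0 and 0.16 CPM in the FaDu libraries. Both kallikrein genes were called higher by edgeR, and their groups were wholly apart. Of 13 plasma cell and leukocyte markers 3 were listed at 0 in every library and 6 in every FaDu library, IGKC among them, and 3 of the 5 that passed the filter rose. The summed level of those 13 overlapped, at 40.5 to 48.2 CPM in shNSUN2 and 31.4 to 51.9 CPM in FaDu. Of 9 smooth muscle markers, 3 rose and 1 fell, with sums of 44.8 to 60.2 CPM in shNSUN2 and 48.1 to 54.3 CPM in FaDu, and 1 rose without any of the FaDu libraries and none without shNSUN2 replicate 1. The part of such transcripts in the results below was not tested.

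Of the 42 genes 18 rose in shNSUN2 and none fell. They were chosen with earlier results of these data known, so a contrast with all genes is not independent of that choice. Over all 19081 genes tested the same call was made for 8.54% of genes higher and for 9.97% lower. Among the 7141 genes at least as abundant as the lowest of the 42 it was made for 15.3% higher and 7.95% lower. The median log2 fold change of the 42 was 0.53, beside -0.0069 for all genes tested and 0.14 for genes as abundant. In the edgeR fit no member fell at an unadjusted p under 0.05 either, and DESeq2 called 22 higher and none lower. The fold was above 0 for 40 of the 42, against 49.6% of all genes tested and 64.1% of genes as abundant. In 27 of the 42 every shNSUN2 library lay above every FaDu library, a pattern seen in 20.3% of all genes tested and in 33.3% of genes as abundant, and in no member did it run the other way. The number called depended on single libraries. It was 7 without shNSUN2 replicate 1 (4.46% of all genes tested called higher), 22 without replicate 2 (8.31%) and 19 without replicate 3 (10.5%). It was 4 without FaDu replicate 1 (3.1% of all genes), 5 without replicate 2 (2.38%) and 3 without replicate 3 (2.51%). The median log2 fold change of the members lay between 0.44 and 0.62 in those 6 fits.

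With all 6 libraries, the number of members called higher was 18 with the size factors of DESeq2 in edgeR (8.73% of all genes), 17 with plain library totals (7.87%), 13 with upper quartile scaling (6.59%) and 18 with no filter on low counts (4.52%). The DESeq2 test called 22 (6.6%). It was 9 with the replicate number as a block (5.08%), 18 with a correction for GC content and length (9.72%) and 15 with both (6.07%).

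**Figure D1:**
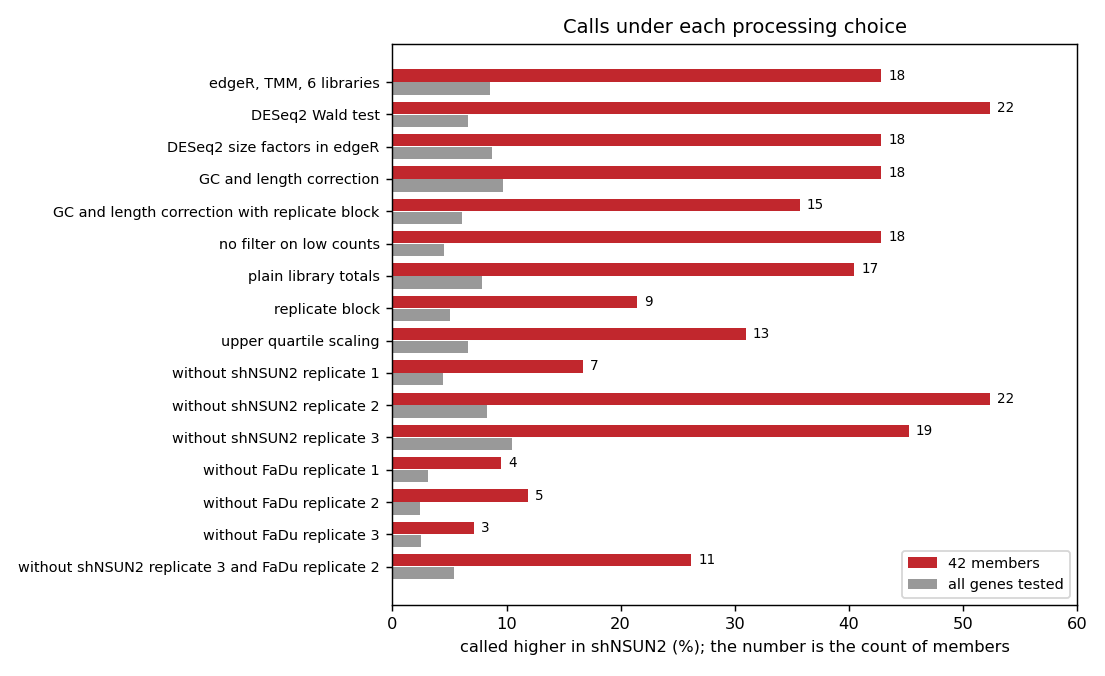
Percent of the 42 genes (red bars, with the count) and of all genes tested (grey bars) called higher in shNSUN2 under each processing choice. The count is 18 in the edgeR fit of all 6 libraries and runs between 3 and 22 when 1 library is left out, and in each fit the red bar is longer than the grey one.

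By library, the other 41 genes (MYC apart) had a median log2 ratio to their FaDu mean of 0.60, 0.26 and 0.69 in shNSUN2 replicates 1, 2 and 3, against 0.044, 0.012 and -0.057 in FaDu replicates 1, 2 and 3. All 41 lay above their FaDu mean in shNSUN2 replicate 1, 36 in replicate 2 and 37 in replicate 3. Replicate 2 was therefore the library nearest to FaDu. Together the 42 genes summed to 7111, 6021 and 7371 CPM in the shNSUN2 libraries, against 4957, 4836 and 4466 CPM in the FaDu libraries. These sums use scaled library totals, so they are not exact shares of counts. They are relative levels in RNA from many cells. A change in RNA per cell and a change in the number of cells that carry it cannot be told apart.

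**Figure D2:**
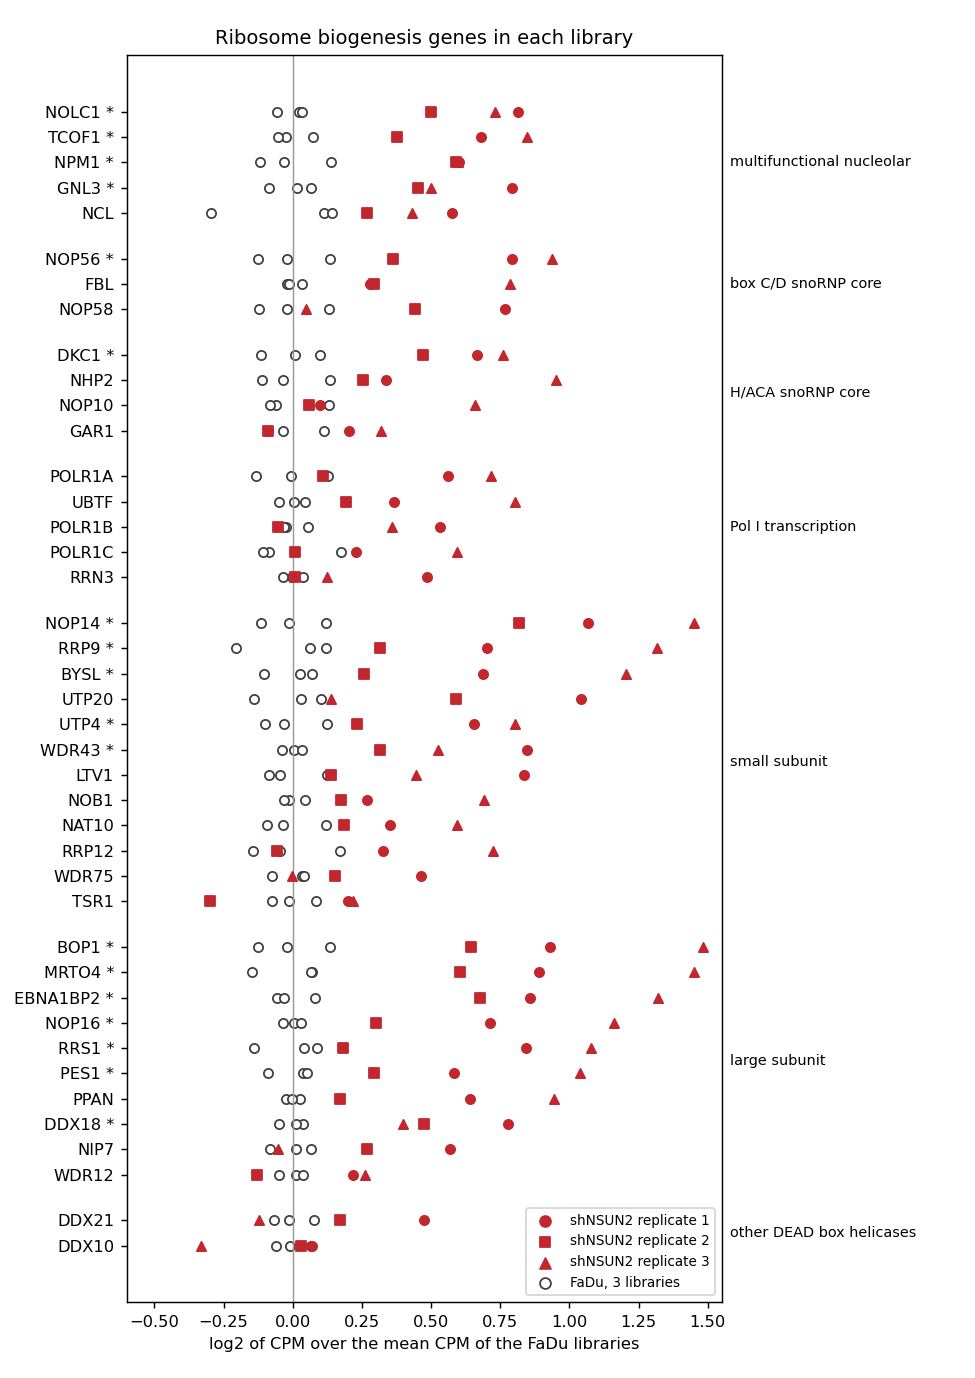
Log2 of each gene's CPM over its mean in the FaDu libraries, for the 41 genes other than MYC, grouped by role; red symbols are the 3 shNSUN2 libraries, open circles the 3 FaDu libraries, and an asterisk marks an edgeR adjusted p under 0.05. The red symbols lie to the right for most genes, farthest for NOP14, BOP1, MRTO4 and EBNA1BP2, and mix with the open circles for POLR1A, POLR1B, POLR1C, RRN3, TSR1, WDR12 and DDX10.

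MYC itself could not be read as higher or lower. Its locus is at 127735434 to 127741434 on the plus strand of chromosome 8 (GRCh38). MYC stood at 71.6, 128 and 7.19 CPM in the shNSUN2 libraries, against 143, 9.53 and 91.8 CPM in the FaDu libraries. In each group 1 library lay far below the others, replicate 3 of shNSUN2 and replicate 2 of FaDu, so that the groups overlapped over their whole range. The test gave a log2 fold change of -0.24 (SE 1.24, edgeR adjusted p = 0.915). The highest shNSUN2 library was 17.7 times the lowest and the highest FaDu library 14.95 times the lowest. Among the other 41 genes the widest range was 2.004-fold within shNSUN2 and 1.35-fold within FaDu. Of 10430 genes that reached 10 CPM in some library, 26 ranged more than 8-fold within both groups, MYC among them. The 2 low values rest on 486 counts in shNSUN2 replicate 3 and 520 in FaDu replicate 2, against 4847 to 8726 in the other libraries.

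The noncoding RNA gene PVT1, the downstream neighbour of MYC, had no drop of that kind, at 18.5, 19.7 and 21.4 CPM in the shNSUN2 libraries, against 14.7, 13.7 and 19.2 CPM in the FaDu libraries. CASC11, the noncoding neighbour on the other side and the opposite strand, was barely detected, with 20, 8 and 14 counts in the shNSUN2 libraries, against 30, 0 and 45 counts in the FaDu libraries. It was thus listed at 0 in the FaDu library with low MYC counts, while in the shNSUN2 library with low MYC counts it lay between the other libraries of its group. The ribosome biogenesis genes had no such drop. In the FaDu library with low MYC counts their median log2 ratio was 0.012, between those of the other 2 FaDu libraries. In the shNSUN2 library with low MYC counts it was 0.69, beside 0.60 and 0.26 in replicates 1 and 2. The factor that scales library totals was 0.928 for replicate 3 and 1.004 for replicate 1, so the order of 0.69 and 0.60 rests on the scaling. In scaled CPM the shNSUN2 library with low MYC counts was the highest of its group for all 19 members with 50% GC or more. Among the 22 members below 50% it was the highest for 7 and the lowest for 7. Whether MYC and these genes vary together was not tested. Without those 2 libraries, a choice made after the values were seen, MYC was at a log2 fold of -0.23 (SE 0.37, edgeR adjusted p = 0.734), and 11 of the 42 genes were called higher (5.43% of all genes tested) and none lower. The cause of the 2 low values was not tested.

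**Figure D3:**
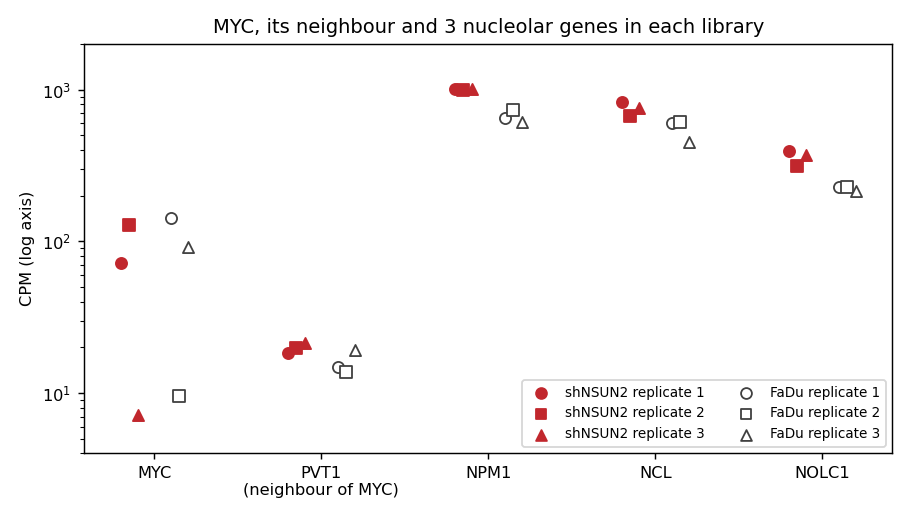
CPM (log axis) of MYC, its neighbour PVT1 and the nucleolar genes NPM1, NCL and NOLC1 in each library; filled red symbols are shNSUN2, open symbols FaDu, and the symbol shape gives the replicate. MYC is at 7.19 CPM in shNSUN2 replicate 3 and 9.53 CPM in FaDu replicate 2, where the other 4 genes show no drop of that size.

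Many promoters of the members hold an E-box sequence. The members were named together with MYC, known to drive such genes through E-boxes, so an excess here is not independent of their choice. Windows from 250 bases before to 50 bases after the gene start were found for 34 of the 42 genes in RefSeq (GRCh38.p14), some with several starts, 43 windows in all. The E-box CACGTG, which reads the same on both strands, was searched in each. At least 1 window of 16 of the 34 genes held it, that is 47.1%, against 8.77% of all 27305 genes in the promoter table and 13.8% of genes as abundant. It was present for 9 of the 13 called genes with a window and for 7 of the 21 genes not called, a difference that was not tested. The windows also differed in GC content, at 65.7% for called genes and 60.5% for those not called. The called genes with a window but without the E-box were NPM1, DKC1, NOP56 and NOP16. The genes not called that held it were FBL, UTP20, NOP10, GAR1, LTV1, DDX21 and NAT10. No window was found for the called genes BOP1, DDX18, NOLC1, RRS1 and TCOF1. Counted by window the E-box was present in 17 of 43, 39.5%, against 7.26% of all windows and 10.1% of windows of genes as abundant. Of 18 matches 16 began within 50 bases of the start. A match is a description of the sequence and not a site of binding.

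The stretches around the match are shown for 8 genes that rose and for FBL and UTP20, which did not pass the test. They show how close to the start and how variable in its flanks the element is in genes that carry it. Capitals mark the E-box, and each stretch reads 5′ to 3′ on the gene's strand (GRCh38.p14).
MRTO4, chr1:19251802-19251841, plus strand: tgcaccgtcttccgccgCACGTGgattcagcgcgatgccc
WDR43, chr2:28894653-28894692, plus strand: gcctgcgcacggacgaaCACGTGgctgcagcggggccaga
RRP9, chr3:51941887-51941926, minus strand: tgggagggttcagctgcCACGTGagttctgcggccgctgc
GNL3, chr3:52686021-52686060, plus strand: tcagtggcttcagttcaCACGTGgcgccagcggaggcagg
NOP14, chr4:2963369-2963408, minus strand: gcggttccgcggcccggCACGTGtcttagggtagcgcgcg
BYSL, chr6:41921510-41921548, plus strand: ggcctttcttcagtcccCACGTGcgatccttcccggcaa
UTP4, chr16:69132616-69132655, plus strand: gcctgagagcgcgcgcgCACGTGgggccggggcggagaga
PES1, chr22:30591875-30591914, minus strand: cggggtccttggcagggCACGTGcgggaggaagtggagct
FBL, chr19:39846351-39846390, minus strand: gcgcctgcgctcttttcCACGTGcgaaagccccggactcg
UTP20, chr12:101280078-101280117, plus strand: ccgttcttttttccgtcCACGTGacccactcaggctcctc

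EBNA1BP2 has an E-box in each of its 2 windows. NOP10 is the 1 member with a pair of E-boxes in a single window, and its whole window is shown because its transcript did not pass the test although it carries that pair.
NOP10, chr15:34343087-34343386, minus strand: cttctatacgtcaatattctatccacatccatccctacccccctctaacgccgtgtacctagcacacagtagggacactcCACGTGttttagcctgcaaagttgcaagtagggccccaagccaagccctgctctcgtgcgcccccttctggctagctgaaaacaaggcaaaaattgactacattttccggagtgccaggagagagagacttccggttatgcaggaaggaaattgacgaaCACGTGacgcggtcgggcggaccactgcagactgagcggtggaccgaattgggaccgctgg

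The counts by role here and below stand beside 8.54% of all genes tested and 15.3% of genes as abundant called higher. Groups lay wholly apart in that direction for 20.3% and 33.3%. Among the multifunctional nucleolar proteins, 4 of 5 rose, and all 5 were higher in every shNSUN2 library than in any FaDu library. NPM1, the abundant histone chaperone nucleophosmin, had 1008, 999 and 1004 CPM in the shNSUN2 libraries, against 650.4, 730.1 and 612 CPM in the FaDu libraries. Its shNSUN2 libraries were nearly level, for a log2 fold change of 0.60 (SE 0.11, edgeR adjusted p = 0.009). NOLC1, a chaperone of snoRNPs, had 393, 315 and 371 CPM in the shNSUN2 libraries, against 227, 228 and 214 CPM in the FaDu libraries. The groups were well apart, with a log2 fold change of 0.69 (SE 0.12, edgeR adjusted p = 0.0079). TCOF1, the treacle protein that links Pol I to processing, had 349.8, 284 and 393 CPM in the shNSUN2 libraries, against 230.0, 215 and 211 CPM in the FaDu libraries. That is a log2 fold change of 0.65 (SE 0.14, edgeR adjusted p = 0.0173). GNL3, the GTPase nucleostemin, had 146, 115 and 119 CPM in the shNSUN2 libraries, against 79.3, 88.0 and 85.2 CPM in the FaDu libraries. Its lowest shNSUN2 library was above its highest FaDu library (log2 fold change 0.59, SE 0.13, edgeR adjusted p = 0.0198). NCL, nucleolin, had 831, 671 and 752 CPM in the shNSUN2 libraries, against 603, 615 and 455 CPM in the FaDu libraries. The groups did not overlap, but FaDu replicate 3 stood below the other FaDu libraries, and the log2 fold change of 0.43 (SE 0.15, edgeR adjusted p = 0.0813) did not pass the test. NPM1 has 45 pseudogenes by name in the table, with 60.4 to 71.0 CPM in all in shNSUN2 and 37.9 to 51.0 CPM in FaDu, so its own count is uncertain by reads that fit both. The 4 calls were 2, 4 and 4 without shNSUN2 replicate 1, 2 or 3 and 1, 2 and 1 without FaDu replicate 1, 2 or 3.

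In the box C/D snoRNP, which methylates ribose, 1 of 3 core proteins rose. With so few genes that count cannot be set apart from the 15.3% of genes as abundant called higher. NOP56 had 214, 158 and 236 CPM in the shNSUN2 libraries, against 135, 121 and 113 CPM in the FaDu libraries, a log2 fold change of 0.72 (SE 0.16, edgeR adjusted p = 0.0218). Every shNSUN2 library was above every FaDu library for it. The methyltransferase FBL, fibrillarin, had 196, 198 and 278 CPM in the shNSUN2 libraries, against 165, 159 and 159.6 CPM in the FaDu libraries. Replicates 1 and 2 of shNSUN2 lay just above the FaDu libraries and replicate 3 well above them, and the log2 fold change of 0.47 (SE 0.15, edgeR adjusted p = 0.069) did not pass the test. NOP58, which pairs with NOP56 in the particle, had 69.2, 55.2 and 42.03 CPM in the shNSUN2 libraries, against 40.1, 44.5 and 37.4 CPM in the FaDu libraries. Here replicate 3 of shNSUN2 lay within the FaDu range (log2 fold change 0.45, SE 0.19, edgeR adjusted p = 0.137, not past the test). Without shNSUN2 replicate 3 all 3 core proteins were called, and without shNSUN2 replicate 1 or any FaDu library none was.

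In the H/ACA snoRNP, which converts uridine to pseudouridine, 1 of 4 core proteins rose. That count too is small and cannot be set apart from the 15.3% of genes as abundant called higher. DKC1, the pseudouridine synthase dyskerin, had 239, 209 and 256 CPM in the shNSUN2 libraries, against 152, 162 and 139 CPM in the FaDu libraries. The groups did not overlap (log2 fold change 0.64, SE 0.12, edgeR adjusted p = 0.012). NHP2, which binds the guide RNA, had 110.0, 104 and 168 CPM in the shNSUN2 libraries, against 95.5, 84.8 and 80.6 CPM in the FaDu libraries. Its groups did not overlap either, but shNSUN2 replicate 3 lay far above replicates 1 and 2, and the log2 fold change of 0.55 (SE 0.20, edgeR adjusted p = 0.0894) did not pass the test. NOP10, whose promoter is printed above, had 114, 111 and 167 CPM in the shNSUN2 libraries, against 116, 102 and 100.2 CPM in the FaDu libraries. GAR1 had 24.2, 19.8 and 26.2 CPM in the shNSUN2 libraries, against 20.5, 22.7 and 19.8 CPM in the FaDu libraries. For both, the groups overlapped, and the log2 fold changes were 0.30 (SE 0.18, edgeR adjusted p = 0.284) and 0.16 (SE 0.15, edgeR adjusted p = 0.514). DKC1 was no longer called without FaDu replicate 1 or 3, and no other H/ACA core protein was called when any 1 library was left out.

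The levels within these particles were unequal per length of annotated exon. NOP10 had 236 CPM per kilobase in shNSUN2 and 191 in FaDu, NHP2 had 84.3 and 57.6, DKC1 had 55.9 and 35.9, and GAR1 had 11.4 and 10.3 in the same order of groups. In the box C/D particle FBL had 103 CPM per kilobase in shNSUN2 and 74.1 in FaDu, NOP56 had 37.5 and 22.8, and NOP58 had 16.8 and 12.3. NPM1 was the highest of the 42 on this scale in shNSUN2, at 262 CPM per kilobase, against 173 in FaDu, where NOP10 was higher. WDR12 was the lowest in both, at 3.35 in shNSUN2 and 3.07 in FaDu. The lengths count every exon in GENCODE 29, also those of minor transcripts, so they set these levels only roughly.

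None of the 5 members of the Pol I machinery was called by edgeR or by DESeq2, though all had a fold above 0 and 2 had an unadjusted p under 0.05. Their median log2 fold change was 0.30. POLR1A, the largest subunit, had 191, 139.5 and 213 CPM in the shNSUN2 libraries, against 141, 129 and 118 CPM in the FaDu libraries. Replicate 2 of shNSUN2 fell within the FaDu range (log2 fold change 0.49, SE 0.17, edgeR adjusted p = 0.0835). POLR1B, the second largest subunit, had 59.3, 39.5 and 52.5 CPM in the shNSUN2 libraries, against 42.5, 40.3 and 40.03 CPM in the FaDu libraries. Here too replicate 2 of shNSUN2 was as low as the FaDu libraries (log2 fold change 0.30, SE 0.16, edgeR adjusted p = 0.238). UBTF, which binds ribosomal DNA along the gene, had 124, 109.8 and 168 CPM in the shNSUN2 libraries, against 99.1, 96.5 and 92.8 CPM in the FaDu libraries. Its groups did not overlap, but the log2 fold change of 0.48 (SE 0.17, edgeR adjusted p = 0.0831) did not pass the test. POLR1C, a subunit that Pol I shares with Pol III, and RRN3, which brings Pol I to the promoter, were at log2 folds of 0.30 and 0.22. Without shNSUN2 replicate 2, POLR1A and UBTF were called. A list of 10 other Pol I subunits and factors also held few changes, with none called by edgeR, 1 of each direction at an unadjusted p under 0.05, 1 higher by DESeq2, 1 higher by edgeR without FaDu replicate 1 and a median of 0.15. Whether Pol I genes differed from assembly factors in their change was not tested.

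Of 12 factors of small subunit processing and assembly, 5 rose, and the median log2 fold change was 0.54. NOP14, a part of the small subunit processome, had the largest fold of the 42. It had 93.0, 78.2 and 121 CPM in the shNSUN2 libraries, against 48.2, 43.9 and 41.0 CPM in the FaDu libraries. All shNSUN2 libraries were well above FaDu, at a log2 fold change of 1.14 (SE 0.18, edgeR adjusted p = 0.00547), and it was the only small subunit factor still called without shNSUN2 replicate 1 or without any 1 of the FaDu libraries. RRP9, a protein of the U3 snoRNP, had 54.5, 41.7 and 83.5 CPM in the shNSUN2 libraries, against 36.5, 35.0 and 29.1 CPM in the FaDu libraries. BYSL, bystin, which acts late in small subunit assembly, had 60.9, 45.2 and 87.2 CPM in the shNSUN2 libraries, against 39.8, 35.2 and 38.5 CPM in the FaDu libraries. For both, shNSUN2 replicate 3 stood far above replicate 2, which lay not far above the FaDu libraries, and their log2 fold changes of 0.84 (SE 0.25, edgeR adjusted p = 0.04997) and 0.77 (SE 0.23, edgeR adjusted p = 0.0499) passed the threshold of 0.05 only just. UTP4, of the t-UTP complex, had 165, 123 and 182 CPM in the shNSUN2 libraries, against 114, 102 and 97.5 CPM in the FaDu libraries. WDR43, of the same complex, had 151, 104 and 121 CPM in the shNSUN2 libraries, against 84.0, 85.8 and 81.7 CPM in the FaDu libraries. Neither showed overlap, and their log2 fold changes were 0.58 (SE 0.16, edgeR adjusted p = 0.042) and 0.58 (SE 0.15, edgeR adjusted p = 0.0336). UTP20, a scaffold of the processome, had 89.3, 65.3 and 47.7 CPM in the shNSUN2 libraries, against 46.5, 44.2 and 39.3 CPM in the FaDu libraries. Its replicates ran the other way from those of RRP9, with replicate 3 the lowest of the shNSUN2 libraries, and its log2 fold change of 0.64 (SE 0.22, edgeR adjusted p = 0.0804) did not pass the test. NOB1, LTV1 and NAT10 also did not overlap between groups without passing it, at log2 folds of 0.40, 0.50 and 0.39. NOB1 is the nuclease that makes the final cut of 18S rRNA, and NAT10 acetylates cytidine in it. LTV1 is an adaptor in the export of the small subunit. RRP12, an export factor, WDR75, another t-UTP protein, and TSR1 overlapped between groups, with log2 folds of 0.37, 0.22 and 0.059. TSR1, a late assembly factor, had 105, 74.2 and 106 CPM in the shNSUN2 libraries, against 96.8, 90.4 and 86.5 CPM in the FaDu libraries. Its shNSUN2 replicate 2 was the lowest of the 6 libraries. The 5 calls were 1, 6 and 4 without shNSUN2 replicate 1, 2 or 3 and 1 without any of the FaDu libraries.

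Of 10 factors of large subunit processing and assembly 7 rose, with a median log2 fold change of 0.71. BOP1 and PES1 form with WDR12 the PeBoW complex, which is needed for the maturation of large subunit rRNA. BOP1 had 101, 83.0 and 148 CPM in the shNSUN2 libraries, against 58.3, 48.6 and 52.3 CPM in the FaDu libraries. PES1 had 208, 170.1 and 285 CPM in the shNSUN2 libraries, against 142, 144 and 130.4 CPM in the FaDu libraries. WDR12 had 32.5, 25.5 and 33.4 CPM in the shNSUN2 libraries, against 28.1, 28.6 and 26.9 CPM in the FaDu libraries. The 3 partners were thus unequal, with log2 fold changes of 1.06 (SE 0.21, edgeR adjusted p = 0.014) for BOP1, 0.67 (SE 0.19, edgeR adjusted p = 0.0415) for PES1 and 0.13 (SE 0.14, edgeR adjusted p = 0.574) for WDR12, whose groups overlapped. The difference between the partners was not tested.

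MRTO4, a placeholder for a stalk protein on the nascent large subunit, had 98.0, 80.4 and 144 CPM in the shNSUN2 libraries, against 55.5, 55.3 and 47.8 CPM in the FaDu libraries. EBNA1BP2, an early factor of the large subunit, had 210.1, 185 and 289 CPM in the shNSUN2 libraries, against 111, 123 and 113 CPM in the FaDu libraries. These are log2 fold changes of 1.03 (SE 0.21, edgeR adjusted p = 0.016) and 0.98 (SE 0.17, edgeR adjusted p = 0.00883), and the groups of both were well apart. RRS1, which takes part in the assembly of the 5S RNA, had 86.5, 54.6 and 102 CPM in the shNSUN2 libraries, against 51.2, 49.6 and 43.7 CPM in the FaDu libraries. NOP16, a nucleolar factor of the large subunit, had 72.1, 54.1 and 98.5 CPM in the shNSUN2 libraries, against 44.1, 42.9 and 44.9 CPM in the FaDu libraries. The DEAD box helicase DDX18 had 147, 119 and 113 CPM in the shNSUN2 libraries, against 88.0, 86.4 and 82.8 CPM in the FaDu libraries. None of the 3 overlapped between groups, and their log2 fold changes were 0.75 (SE 0.22, edgeR adjusted p = 0.0496), 0.77 (SE 0.21, edgeR adjusted p = 0.0379) and 0.56 (SE 0.13, edgeR adjusted p = 0.0241). PPAN did not overlap between groups without passing the test (log2 fold change 0.62, SE 0.19, edgeR adjusted p = 0.061). A read-through gene that joins it to P2RY11 had at most 1.89 CPM in any library, so little of its count can be in doubt on that ground. NIP7 overlapped, at 0.28 (SE 0.17, edgeR adjusted p = 0.277). The 7 calls were 3, 8 and 7 without shNSUN2 replicate 1, 2 or 3 and 2, 1 and 1 without FaDu replicate 1, 2 or 3.

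Neither of the helicases DDX21 and DDX10 passed the test (edgeR, also none at an unadjusted p under 0.05 or by DESeq2). DDX21, which works in both Pol I transcription and snoRNA release, had 426, 345 and 282 CPM in the shNSUN2 libraries, against 304, 324 and 293 CPM in the FaDu libraries. DDX10 had 43.9, 42.7 and 33.2 CPM in the shNSUN2 libraries, against 40.1, 43.8 and 41.6 CPM in the FaDu libraries, and was the only gene besides MYC with a fold below 0. In both, shNSUN2 replicate 3 was the lowest of the 6 libraries, the groups overlapped, and the log2 fold changes of 0.19 (SE 0.16, edgeR adjusted p = 0.427) and -0.067 (SE 0.14, edgeR adjusted p = 0.783) did not pass the test. Neither was called in any fit.

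**Figure D4:**
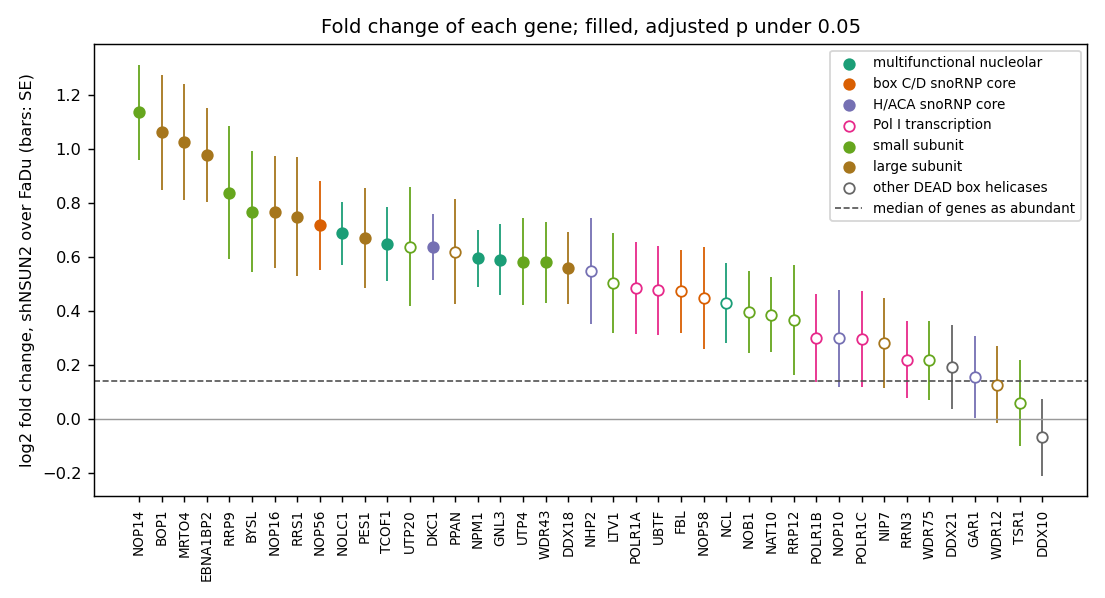
Log2 fold change of each gene in shNSUN2 over FaDu (edgeR; bars give 1 SE), in falling order and coloured by role, for the 41 genes other than MYC; filled points have an adjusted p under 0.05 and the dashed line is the median of genes as abundant, 0.14. Large subunit factors take 3 of the 4 highest places, and the Pol I genes are all open points between 0.22 and 0.49. In the fit without shNSUN2 replicate 3, not drawn here, UTP20 at 0.84 stood above BOP1 at 0.80. The large subunit median was 0.54 in that fit, against 0.71 with all libraries.

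EBNA1BP2, NOLC1 and NOP14 were called under all 14 alternatives to the edgeR fit of 6 libraries, and all 18 called genes kept a fold above 0 in each of them. BOP1, DKC1 and NPM1 were called in 12 of the 14, with adjusted p of edgeR or DESeq2 up to 0.0646, 0.0689 and 0.0548 over the alternatives. RRS1, RRP9 and UTP4 were called least often among the 18, in 4, 5 and 6 of the 14. A further 15 genes were called in no fit.

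Replicates of both groups differed from each other along the GC content of the genes. Of the 19 members with 50% GC or more in their longest transcript, MYC apart, shNSUN2 replicate 3 was the highest library of its group for all 19. Of the 22 members below 50% it was the highest for 7 and the lowest for 7. Across the 41 genes the log2 ratio of replicate 3 to the mean of replicates 1 and 2 had a Spearman rho of 0.83 with GC content and -0.42 with exonic length, and across 7140 genes as abundant 0.62 and -0.44. The same ratio of each FaDu library to the mean of the others had a rho with GC content across the 41 genes of 0.53, -0.49 and -0.045 for replicates 1, 2 and 3. The points share libraries, and no p is given. UTP20, NOP58 and NIP7 had the lowest ratios and RRP9, BYSL and MRTO4 the highest.

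The calls were shared by both kinds of gene, beside 15.3% of genes as abundant called higher. Below 50% GC 8 of 22 rose, with a median log2 fold change of 0.44, and at 50% or more 10 of 19 rose, with a median of 0.65. Without shNSUN2 replicate 3 the medians were 0.448 for both kinds, with 10 and 9 genes called. With a correction for GC content and length, 9 genes were called on each side, the medians were 0.38 and 0.53, and the total stayed at 18.

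**Figure D5:**
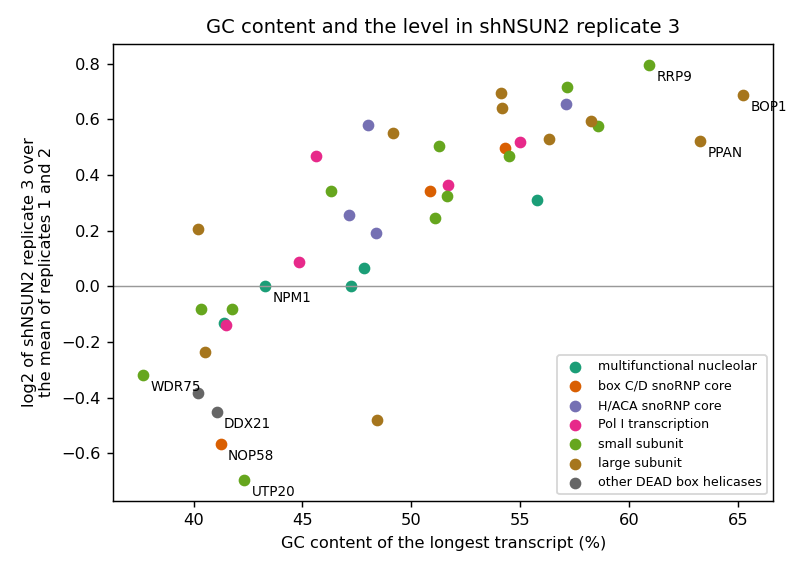
Log2 ratio of shNSUN2 replicate 3 to the mean of shNSUN2 replicates 1 and 2 against the GC content (%) of the longest transcript, 1 point for each of the 41 genes other than MYC, coloured by role. The points run upward, from WDR75, UTP20 and NOP58 at the lower left to RRP9 and BOP1 at the upper right, with a Spearman rho of 0.83.

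Other genes of the same pathway were counted in 6 lists. Like the lists further below, they were chosen with earlier results of these data known. Over all genes tested 8.54% were called higher and 9.97% lower, and among genes as abundant as the members 15.3% and 7.95%. Of 143 genes tested, 37 rose and 1 fell, and the median log2 fold change was 0.41. Of 41 other factors of the small subunit 13 rose and none fell (none at an unadjusted p under 0.05 or by DESeq2 either), with a median of 0.48. DCAF13 had a log2 fold change of 0.66 (SE 0.12, edgeR adjusted p = 0.0112), NOL7 of 0.85 (SE 0.16, edgeR adjusted p = 0.0122) and UTP6 of 0.73 (SE 0.15, edgeR adjusted p = 0.014). Of 46 other factors of the large subunit 16 rose and 1 fell, with a median of 0.44. The helicase DDX55 was at 0.80 (SE 0.14, edgeR adjusted p = 0.008), RPF2 at 0.77 (SE 0.15, edgeR adjusted p = 0.0135) and NSA2 at 0.54 (SE 0.12, edgeR adjusted p = 0.019). The 1 gene that fell was NOP53, an adaptor that brings the RNA exosome to the precursor, named after its value was seen, and of the fits without 1 library only that without shNSUN2 replicate 3 called a gene of the list lower.

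Of 24 subunits of the RNA exosome and RNase MRP 5 rose, with a median of 0.35, and POP1, the largest protein of RNase MRP, had a log2 fold change of 0.97 (SE 0.16, edgeR adjusted p = 0.00644). EXOSC2 and EXOSC10, a cap protein and a nuclease of the exosome, were at 0.76 (SE 0.15, edgeR adjusted p = 0.0138) and 0.50 (SE 0.11, edgeR adjusted p = 0.0177). Of 11 snoRNP assembly factors 2 rose, the partner ATPases RUVBL1 at 0.86 (SE 0.14, edgeR adjusted p = 0.00748) and RUVBL2 at 0.68 (SE 0.17, edgeR adjusted p = 0.0311), and the median was 0.17. Of 12 other enzymes and cofactors of rRNA modification 2 rose, the base methyltransferase BUD23 at 0.81 (SE 0.20, edgeR adjusted p = 0.0268) and the ribose methyltransferase FTSJ3 at 0.55 (SE 0.15, edgeR adjusted p = 0.0383), and the median was 0.41. The counts called in these 3 lists were near or little above the 15.3% of genes as abundant called higher. The 5 of the exosome and RNase MRP list were 1, 2 and 1 without FaDu replicate 1, 2 or 3. The 37 genes that rose were 13, 55 and 44 without shNSUN2 replicate 1, 2 or 3 and 6, 4 and 3 without FaDu replicate 1, 2 or 3.

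Of 19 tested genes known as MYC targets outside the nucleolus, 8 rose and 1 fell, with a median of 0.45. SRM, spermidine synthase, had a log2 fold change of 1.25 (SE 0.16, edgeR adjusted p = 0.00241) and CDC25A, a phosphatase of the cell cycle, of 1.61 (SE 0.23, edgeR adjusted p = 0.00398). The cyclin CCND2 was lower, at -2.30 (SE 0.27, edgeR adjusted p = 0.00184). The 8 were 5, 10 and 10 without shNSUN2 replicate 1, 2 or 3 and 5, 4 and 3 without FaDu replicate 1, 2 or 3, and 2 fell without shNSUN2 replicate 3. Of 11 tested dimer partners and antagonists of MYC 2 rose and 2 fell, with a median of -0.12, beside 8.54% higher and 9.97% lower over all genes tested. MXD3, a repressor that competes for MAX, had a log2 fold change of 0.60 (SE 0.14, edgeR adjusted p = 0.024). MYCL, a paralog of MYC, had 3.63, 3.18 and 3.29 CPM in the shNSUN2 libraries, against 7.14, 7.30 and 8.45 CPM in the FaDu libraries, a log2 fold change of -1.18 (SE 0.17, edgeR adjusted p = 0.00405). MLXIPL, a glucose-responsive factor of the wider MLX network, averaged 0.0829 CPM in shNSUN2 and 1.17 CPM in FaDu, a log2 fold change of -3.79 (SE 0.44, edgeR adjusted p = 0.00183) at low counts. In the fits without a FaDu library none of the partners was called higher, and without shNSUN2 replicate 1 only 1 was.

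Ribosomal proteins and housekeeping genes were counted beside the pathway. Among genes as abundant as the members 15.3% were called higher, and the counts of both lists were near or below that share. The 79 cytosolic ribosomal proteins, the products that these factors assemble, had a median log2 fold change of 0.19, and 6 rose and none fell (18 and none at an unadjusted p under 0.05, 10 and none by DESeq2). Without shNSUN2 replicate 3 their median was 0.025, with 8 higher and 2 lower, and without a FaDu library 1 was higher each time. The ribosomal proteins named by the rule were RPS26 at 1.38 (SE 0.19, edgeR adjusted p = 0.00365), RPL23 at 0.65 (SE 0.15, edgeR adjusted p = 0.0221) and RPL6 at 0.45 (SE 0.10, edgeR adjusted p = 0.0184). A list of 28 housekeeping reference genes had a median of 0.28, and 5 rose and 1 fell, with 3, 3 and 2 higher without FaDu replicate 1, 2 or 3. PSMB2, a proteasome subunit, was highest among its named genes at 1.02 (SE 0.14, edgeR adjusted p = 0.00316).

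The gene bodies of 9 members hold 28 annotated snoRNA or scaRNA genes on the same strand, among them NCL, GNL3, NOP56, NOP58 and DKC1. None of the 28 passed the filter on low counts, and the highest value of any of them was 0.192 CPM, for SNORD11 in an shNSUN2 library, so their levels could not be compared. Of the 9 host genes 4 rose, with a median log2 fold change of 0.58, and of the other 33 genes 14 rose, with a median of 0.50. Among genes as abundant 15.3% were called higher.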

How the data were processed

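The authors deposited 1 table of estimated counts per Ensembl gene, 58825 rows by 6 libraries. HISAT2 2.0, StringTie 1.3.0 and Bowtie 0.12.2 are named, per the submitters' processing notes, without roles. The build named there is of the mouse and cannot have given human identifiers, and the sources used here give no human build. All deposited values are whole, so the rounding applied before the tests changed none of them. The value 4 was 3.25 to 3.81 times as frequent as the mean of 3 and 5, so a unit may not be a single fragment, and no counting interval is given. Counting is not stated to use strand, so reads of overlapping genes (such as GNL3 with PBRM1, MRTO4 with EMC1, RRN3 with PDXDC1) cannot be told apart.

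Symbols were taken from a table of Ensembl gene names, which held 58472 of the identifiers, and from GENCODE 29, which held 58552 and also gave positions on GRCh38, exonic length and GC content. The tests were edgeR's quasi-likelihood F tests (version 4.0.16, R 4.3.3; glmQLFit with its robust option) after TMM scaling and the filterByExpr filter (minimum count 10, minimum total 15), with the group alone in the design and Benjamini-Hochberg adjustment over the 19081 genes tested. Calls have an adjusted p under 0.05, two-sided. CPM are scaled to TMM-adjusted totals. Each SE is the absolute log2 fold change over the root of its F value. The procedure was tested on simulated data. Alternatives used DESeq2 1.42.0, other scaling factors, no filter, the replicate number as a block, a loess correction of log2 CPM for GC content and length (span 0.5), and each library left out. Pearson's r of log2 CPM lay between 0.982 and 0.990 for pairs of 1 group and between 0.964 and 0.977 across groups.

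The members and all lists were chosen with earlier results of these data known. Values in every library are given for MYC, each called gene, the snoRNP core proteins, NCL, NPM1, UBTF, POLR1A, POLR1B and the genes with the highest and lowest folds. From the other lists up to 3 called genes with the smallest adjusted p and no overlap between groups are named.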

Additional observations from a re-analysis of the deposited data

How the results depend on the processing

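The count of members called higher was 18 with all 6 libraries and ran from 3 to 22 when 1 library was left out. With the replicate number as a block (replicate block) it was 9, while the share of all genes called higher was 5.08%. The series describes its repeats as pairs, but no label says whether libraries of 1 number share a culture or day, so whether the block is the right design is not known. Deviations of same-numbered libraries from their group means correlated at -0.036, 0.024 and 0.0074, and shNSUN2 replicate 1 correlated best with FaDu replicate 2 (0.043). Without shNSUN2 replicate 3 and FaDu replicate 2 together, a choice made after seeing the data, it was 11. It was 13 to 22 under the other alternatives with all libraries, and no member was called lower in any. The median of the members stayed within 0.407 to 0.623. MYC had log2 folds of 0.44 without FaDu replicate 1 and 0.30 without shNSUN2 replicate 3, and ran from -1.05 to 0.44 when 1 library was left out, past the test in none. DDX10 ran from -0.14 to 0.053 when 1 library was left out, with 0.053 without shNSUN2 replicate 3, and was at 0.086 without that library and FaDu replicate 2. TSR1 was at -0.016 with the GC and length correction, -0.029 with that correction and the replicate block, and -0.024 with upper quartile scaling. It ran from -0.025 to 0.21 when 1 library was left out, with -0.012 and -0.025 without shNSUN2 replicate 1 or 3, and was at -0.034 without shNSUN2 replicate 3 and FaDu replicate 2. The cause was not tested in any of these cases. No alternative moved the median log2 fold of all genes by more than 0.1. NSUN2 was past the test in every fit. A member that was not called is not shown to be level.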
